A study of Rattus norvegicus with 18 samples.

Results

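The cytosolic ribosome of the rat is built from a large and a small subunit, each a core of ribosomal RNA surrounded by proteins named Rpl and Rps. Its protein genes are described here in liver at 2 h after removal of part of the organ. The members were the genes whose symbol is Rpl, Rps or Rplp followed by a number, taken from probe sets that name a single gene, without the S6 kinases, which share the letters Rps6k but are enzymes. This gave 72 genes of the 14023 that have a probe set naming them alone, 43 of the large and 29 of the small subunit. Each gene was represented by its brightest probe set over all arrays, since 8 of the 72 had a second. The rule used mean brightness and the name, not any difference between groups. A further 7 ribosomal protein genes, Rpl9, Rpl15, Rpl32, Rpl35a, Rpl36, Rplp2 and Rps4x, were covered by probe sets with several symbols and are no members.

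Liver RNA of 12-week-old Sprague-Dawley rats had been hybridised to 18 Affymetrix Rat Genome 230 2.0 arrays, 3 for each of 6 groups. Untreated liver is labelled both as normal and as time 0 h. The operated animals were examined at 2 h, after a sham operation, after partial hepatectomy (PH), or after PH joined with sympathectomy (SPH), vagotomy (VPH) or total liver denervation (TDPH). The right lobe was sampled at its middle, after the blood had been flushed out through the portal vein. Each denervated group had also undergone PH, so an effect of denervation as such and a change in the response to hepatectomy cannot be told apart. The 3 arrays per group are described as technical replicates, so SDs and p-values measure the spread between arrays and not between animals, of which no number is stated. Sympathectomy removes the noradrenergic supply of the liver and vagotomy the parasympathetic supply.

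Ribosomal protein mRNAs are among the most abundant of a cell, and a growing cell makes the proteins of both subunits in matched amounts. In mammals their mRNAs carry a terminal oligopyrimidine tract (TOP), an unbroken stretch of C and T at the 5' end, through which the growth-regulating kinase mTOR and the RNA-binding protein Larp1 control their translation. Liver regrowing after hepatectomy raises its ribosome content before the cells divide, and Myc, a transcription factor induced early in that process, is a known activator of ribosome production.

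The start regions of the genes on which the results turn are printed to show which of them have a pyrimidine run at the annotated start. Each line gives 15 bases before and 15 bases from the start of transcription as annotated by RefSeq (build GRCr8), 5' to 3' on the gene's strand, with the pyrimidine run in capitals. The locations are chrX:157205835-157205864 (+) for Rpl10, chr8:71290858-71290887 (-) for Rplp1, chr2:177964592-177964621 (-) for Rps27, chr1:181860270-181860299 (-) for Rps15a, chr9:81748076-81748105 (+) for Rpl37a, chr1:78083518-78083547 (-) for Rpl28 and chr5:168117946-168117975 (+) for Rpl22. For the genes shown without capitals they are chr2:113683181-113683210 (+) for Rpl22l1, chrX:102059434-102059463 (+) for Rpl36a, chr7:113507976-113508005 (-) for Rpl3 and chr5:106420526-106420555 (-) for Rps6.
Rpl10: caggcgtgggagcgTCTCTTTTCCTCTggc
Rplp1: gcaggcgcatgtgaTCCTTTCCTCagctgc
Rps27: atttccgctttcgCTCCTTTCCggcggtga
Rps15a: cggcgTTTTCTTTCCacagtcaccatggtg
Rpl37a: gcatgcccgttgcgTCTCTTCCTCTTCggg
Rpl28: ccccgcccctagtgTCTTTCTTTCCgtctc
Rpl22: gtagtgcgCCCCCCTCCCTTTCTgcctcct
Rpl22l1: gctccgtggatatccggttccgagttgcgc
Rpl36a: ccgcctataaacttccgttgctgctctagc
Rpl3: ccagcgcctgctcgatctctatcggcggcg
Rps6: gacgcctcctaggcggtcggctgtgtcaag

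A run of at least 6 C or T in a row, on the gene's own strand and with at least 1 base no more than 5 bases from the annotated start, was found in 40 of the 57 members with a single RefSeq promoter entry (70.2%). The same run was found in 4722 of all 24206 RefSeq promoters (19.5%) and in 12 of 61 promoters of mitochondrial ribosomal protein genes (19.7%), whose products serve the separate ribosome inside mitochondria. Rpl22l1, the paralog of Rpl22, had no such run at its annotated start, while Rpl22 had one. In 5 of the 40 members, Rps15a among those printed, the run ended before the annotated start, so it is not in the transcript as annotated. The match describes letters at an annotated position, and no match says only that no such run reaches to 5 bases from the start; Rps6 has a run of 6 further upstream.

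Probe sets of 69 of the 72 members had a mean log2(signal + 12) of 12 or more. Their differences were therefore set beside those of all 22125 probe sets tested and beside the 1208 other probe sets of that brightness. Of the members, 71 passed the filter on dim probe sets. The exception was Rpl3l, in which signals lay between 7.7 and 64.6 on all 18 arrays; it is the paralog of Rpl3 known from striated muscle. Rpl39, a small protein of the peptide exit tunnel, passed but was dim, with signals of 93.9 to 458. Its normal liver arrays (313 to 341) stood above those of PH (181 to 287) and VPH (93.9 to 242), and all other pairs of groups overlapped. Many pseudogenes are named after ribosomal protein genes (883 in the RefSeq table, with at least 1 for 71 of the 72 members), and what a probe set shares with them was not analysed here. Signals of different probe sets are not comparable as levels of their genes.

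After hepatectomy the members were higher together. The median over members was 13.45 ± 0.03 after sham operation and 13.71 ± 0.03 after PH (log2(signal + 12), mean ± SD of 3 arrays). SPH stood at 13.46 ± 0.06, VPH at 13.63 ± 0.03, TDPH at 13.41 ± 0.02 and normal liver at 13.41 ± 0.01. The 3 PH arrays (13.69, 13.74 and 13.71) lay above every other array, and the 3 VPH arrays (13.64, 13.60 and 13.65) came next without overlap. The arrays of SPH (13.46, 13.52, 13.40), sham, normal liver and TDPH overlapped. As a share of the summed signal of an array, the 72 members made up 3.48% ± 0.05 after PH, 3.28% ± 0.002 for VPH, 3.05% ± 0.04 after sham, 3.07% ± 0.02 in normal liver, 2.96% ± 0.04 in TDPH and 2.93% ± 0.13 in SPH.

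**Figure D1:**
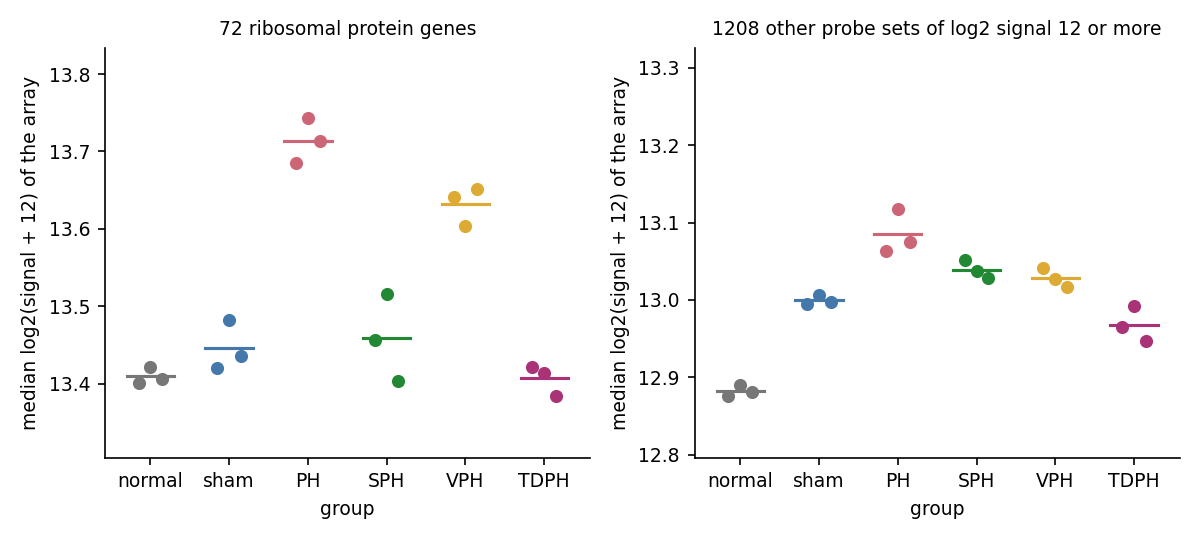
Median log2(signal + 12) on each array (points) and the group mean (lines), for the 72 ribosomal protein genes (left) and the 1208 other probe sets with a mean log2 signal of 12 or more (right), in the 6 groups of 3 arrays, with the same span on both axes. The ribosomal protein genes stand highest in PH (13.69 to 13.74) and VPH (13.60 to 13.65), while the other bright probe sets run from 12.88 on a normal liver array to 13.12 on a PH array.

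PH was highest of the 6 group means for 58 of the 72 members and VPH for 12. The lowest group was normal liver for 33 members and TDPH for 25. For 46 of the 72, the VPH mean lay below the PH mean and above the means of SPH and TDPH. These orders were not counted over all probe sets, so they cannot be read as particular to the members. The median of the other bright probe sets was also highest in PH (mean of 3 arrays 13.085) and lowest in normal liver (12.882).

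The sham operation was compared with normal liver to see what surgery without hepatectomy goes with, though 2 h have also passed. Of the 71 members tested, 10 were higher and 1 lower at an adjusted p under 0.05 (limma, all comparisons alike), with a median log2 difference of 0.07. Among all probe sets tested 7.77% were higher and 9.01% lower, against 14.1% and 1.41% of the members. Among the 1208 bright probe sets 47.3% were higher and 9.27% lower, with a median of 0.14; the difference between them and the members was not tested. None of the 11 members was called under all 4 scalings described below, which called 4.34% of all probe sets higher and 5.69% lower. The sign of the members' median depended on the scaling of the arrays, being -0.07 after quantile normalization and -0.05 when arrays were centred on the other bright probe sets.

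Rpl29 and Rpl36al, both of the large subunit, were the furthest above normal liver among those that passed. Rpl29 had signals of 7341, 7276 and 7616 in normal liver and 8741, 8304 and 9082 after sham operation (log2 difference 0.23, SE 0.05, adjusted p = 0.00267). Rpl36al, the paralog of Rpl36a, had 5166, 5364 and 5353 in normal liver and 5716, 6533 and 6466 after sham (0.23, adjusted p = 0.00271). The arrays of the groups did not overlap for either gene. Rps20, of the small subunit, was the member that was lower, at 11669, 11798 and 11987 in normal liver and 9966, 10014 and 10280 after sham (-0.23, adjusted p = 0.00183). Centred on bright probe sets, Rpl29 stood at 0.12 (adjusted p = 0.128) and Rpl36al at 0.12 (adjusted p = 0.0927), and centred on all probe sets Rps20 stood at -0.12 (adjusted p = 0.245).

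PH was compared with sham operation at the same time after surgery. Of 71 members, 58 rose and 0 fell, 33 of 42 in the large and 25 of 29 in the small subunit. At an unadjusted p under 0.05 limma counted 62 higher and 0 lower. By that rule 2667 of all 22125 probe sets were higher and 4761 lower, and 455 and 183 of the 1208 bright ones. Among all probe sets 8.75% were higher and 13.6% lower, and among the 1208 bright ones 30% were higher and 10.8% lower. The median log2 difference was 0.24, a rise of 17.9%, against -0.11 over all probe sets and 0.06 over the bright ones. The members ranged from -0.16 (Rpl39, adjusted p = 0.802) to 0.53 (Rpl22l1). All 3 PH arrays lay above all 3 sham arrays for 62 members, which was so for 13.5% of all probe sets and 43.3% of the bright ones.

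Rpl22l1 had the largest rise. Its signals were 7999, 8644 and 8323 after sham operation and 11540, 11854 and 12789 after PH, a log2 difference of 0.53 (SE 0.07, adjusted p = 9.84e-06). The lowest PH array was thus well above the highest sham array, and normal liver (8767, 8149 and 8678) lay with sham. Rpl22, whose place in the large subunit Rpl22l1 can take, had 9026, 8877 and 8676 after sham and 9885, 10826 and 10167 after PH (0.22, adjusted p = 0.00287).

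The next largest rises were those of Rpl36a and Rpl23a, the latter a protein beside the peptide exit of the large subunit. Rpl36a went from 5009, 5235 and 5020 to 6618, 6849 and 6947 (0.42, SE 0.06, adjusted p = 2.3e-05). Rpl23a went from 8489, 9731 and 8458 to 11321, 12169 and 12008 (0.41, adjusted p = 9.41e-05). In both, the PH arrays stood clear of the sham arrays, and in Rpl23a 1 sham array lay above the other two.

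In the small subunit Rps15a went from 8710, 9230 and 8894 after sham to 11128, 12537 and 11140 after PH (0.37, adjusted p = 1.35e-05). Rps27, a zinc-binding protein, went from 11751, 11873 and 11334 to 14857, 14330 and 14298 (0.32, SE 0.04, adjusted p = 2.2e-05). Neither gene overlapped between the groups. Rps6, the protein that S6 kinases phosphorylate downstream of mTOR, moved less, from 13570, 13903 and 13034 to 14198, 15705 and 14648 (0.14, adjusted p = 0.0211), and quantile normalization left a difference of 0.002 (adjusted p = 0.98).

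Rpl3, which lies close to the site of peptide bond formation, rose from 13719, 13881 and 13734 to 16951, 18092 and 16924 (0.33, adjusted p = 6.43e-06). Rpl10, which joins the large subunit at a last step of its assembly, rose from 23665, 24121 and 22164 to 26658, 28404 and 26822 (0.23, adjusted p = 0.000505). Both rises were kept under all 4 scalings, with no overlap between arrays. A second, dimmer probe set of Rpl3 did not pass (0.18, adjusted p = 0.255). Of the stalk, the arm of the large subunit that elongation factors bind, Rplp0 rose from 11339, 11829 and 11076 to 13411, 13740 and 13426 (0.24, adjusted p = 0.000443) and at 0.10 after quantile normalization no longer passed (adjusted p = 0.0735). Rplp1 had 17878, 17846 and 16822 after sham and 21790, 22127 and 17217 after PH, with the third PH array inside the sham range (0.21, adjusted p = 0.0261). The call of Rplp1 was lost after quantile normalization (0.12, adjusted p = 0.193), centred on bright probe sets (0.12, adjusted p = 0.16), in a fit of these groups alone (adjusted p = 0.0721), and without the first PH array (adjusted p = 0.136), the second PH array (0.155) or the third sham array (0.105).

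**Figure D2:**
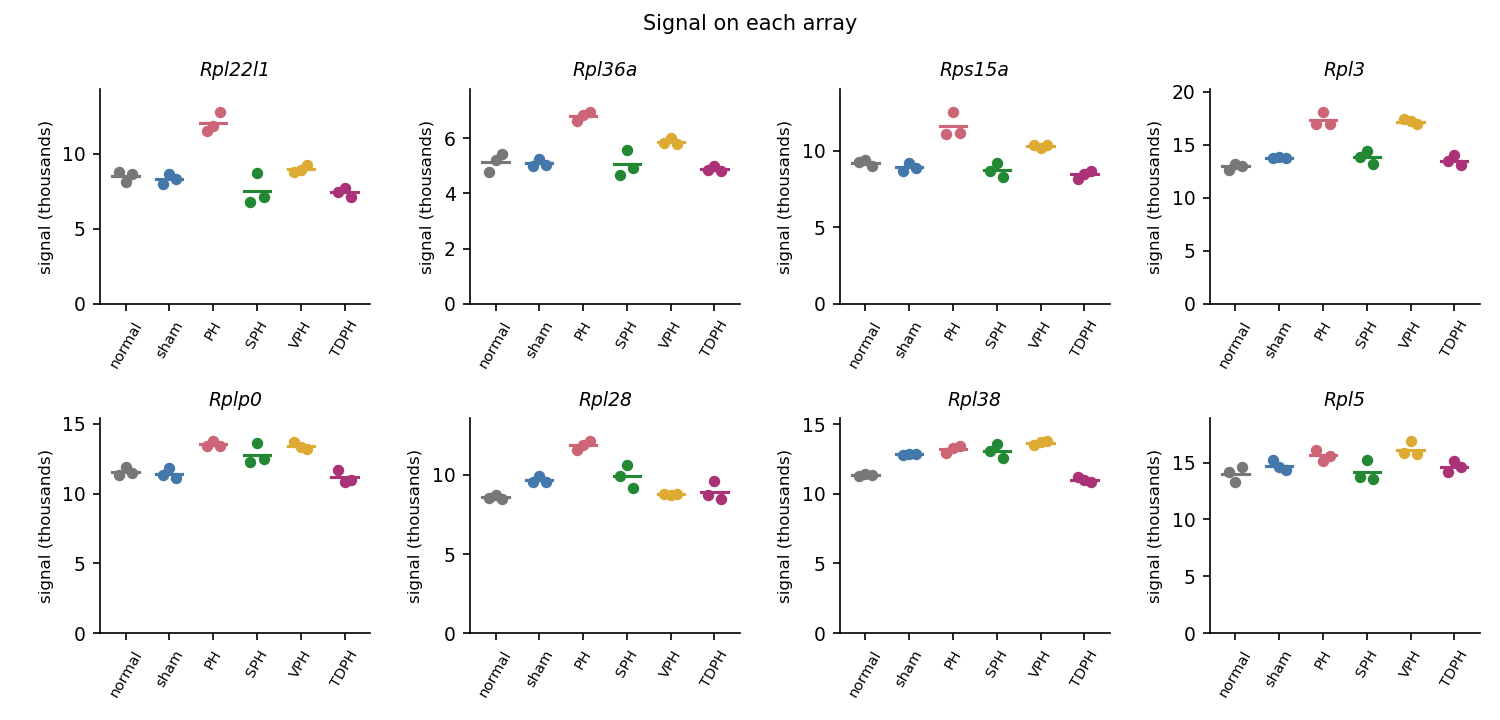
Signal on a linear scale on each array (points) with the group mean (lines) for 8 ribosomal protein genes in the 6 groups of 3 arrays, each panel starting at 0. Rpl22l1, Rpl36a and Rps15a are highest in PH, Rpl3 is high in PH and VPH, Rpl28 is as low in VPH as in normal liver, Rpl38 is low in TDPH and normal liver, and the groups of Rpl5 lie close together.

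Rpl5 and Rpl11 form, with the 5S ribosomal RNA, a particle that can also bind the p53 regulator Mdm2 when it is not built into ribosomes. Rpl11 went from 12319, 12567 and 11158 after sham to 14754, 14976 and 14629 after PH (0.30, adjusted p = 0.000408). Rpl5 had 15238, 14568 and 14386 after sham and 16123, 15160 and 15616 after PH (0.09, SE 0.05, adjusted p = 0.252), so that the lowest PH array lay under the highest sham array. With the deposited scaling Rpl5, Rpl39 and Rps24 were the members that passed in none of the 5 comparisons of sham with normal liver, PH with sham and each denervated group with PH. Centred on all probe sets, Rpl5 passed between sham and normal liver (0.18, adjusted p = 0.0343), PH and sham (0.24, adjusted p = 0.0048), SPH and PH (-0.22, adjusted p = 0.0145) and TDPH and PH (-0.26, adjusted p = 0.00315). Others that did not pass after PH were Rpl21, Rpl29, Rpl34, Rpl36al, Rpl38, Rpl7l1, Rpl8, Rps2, Rps21 and Rps23.

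The size of these differences depended on how the arrays were brought to 1 scale, and the cause was not tested. Bright probe sets as a class also moved. Under quantile normalization 37 members rose and 1 fell (Rpl38, at -0.10, adjusted p = 0.0244), with a median of 0.12. Centring each array on all probe sets gave 69 rises and a median of 0.39, and centring on the bright probe sets that are no members gave 45 rises and a median of 0.15. Of all probe sets 9.76% rose after quantile normalization, 14.8% when centred on all probe sets and 6.49% when centred on bright ones. Of the 58 members, 37 rose under all 4 scalings, against 6.4% of all probe sets. The gap between the members' median and that of the other bright probe sets was 0.18 with the deposited scaling, 0.16 after quantile normalization and 0.18 under both centrings. Over all genes, the share of calls that were rises was 39.1% with the deposited scaling, 68.9% when centred on all probe sets and 24.3% when centred on the bright ones.

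**Figure D3:**
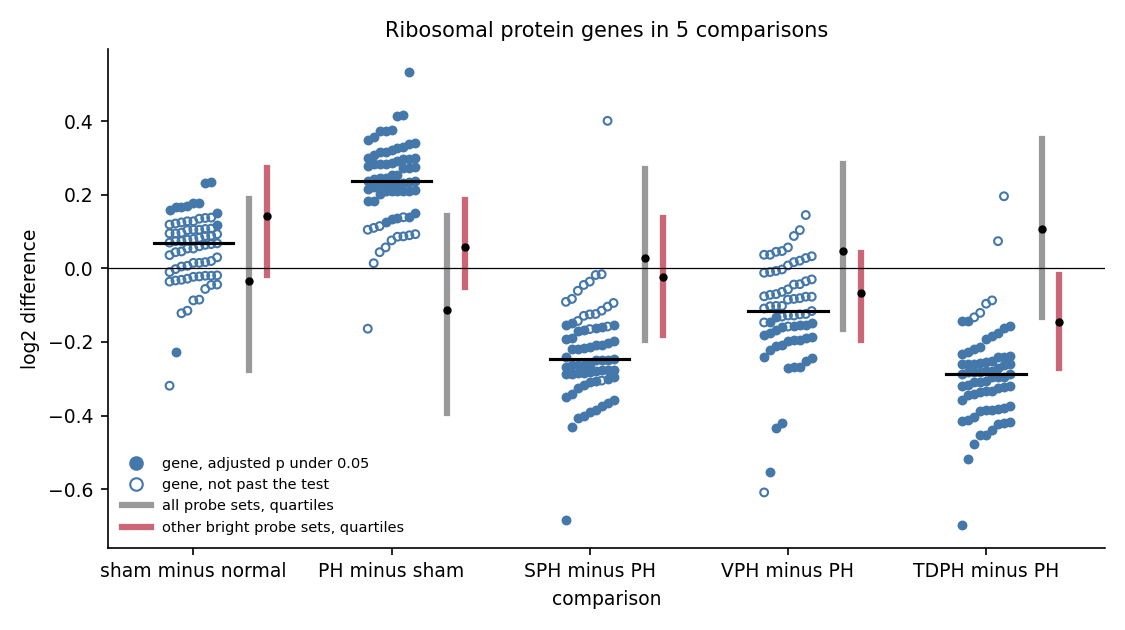
Log2 difference of each of the 71 ribosomal protein genes tested (circles, filled at an adjusted p under 0.05) in 5 comparisons, with their median (black line) and the quartiles and median of all 22125 probe sets (grey) and of the 1208 other bright ones (red). The genes lie mostly above 0 for PH minus sham (median 0.24) and below 0 for SPH, VPH and TDPH minus PH (-0.25, -0.12 and -0.29).

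The 3 denervated groups were each compared with PH to see what nerve supply goes with. These comparisons and that of PH with sham share the 3 PH arrays, so that a high PH array enters all of them, and their values are set side by side below without being taken as support for each other.

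After sympathectomy with PH the members were lower than after PH alone. Of 71, 53 fell and 0 rose, against 6.8% of all probe sets that were lower, 7.41% that were higher and, among the bright ones, 27% lower and 20.9% higher. At an unadjusted p under 0.05 limma counted 62 lower and 0 higher. By that rule 2712 of all 22125 probe sets were lower and 3099 higher, and 426 and 334 of the 1208 bright ones. The median log2 difference was -0.25, a fall of 15.8%, with 0.03 over all probe sets and -0.02 over the bright ones. All 3 SPH arrays lay below all 3 PH arrays for 54 members, for 11.6% of all probe sets and for 28.8% of the bright ones. Of the 53, 44 fell under all 4 scalings, against 5.04% of all probe sets. The gap between the members' median and that of the bright probe sets was -0.22 with the deposited scaling and -0.20 after quantile normalization.

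The member medians of the SPH arrays had the widest spread of the 6 groups (SD 0.06, against 0.01 to 0.03). In a fit of SPH and PH alone, where the spread is not shared with other groups, 24 members fell. The share of all probe sets that fell in that fit is not given, so the lower count cannot be read as particular to the members. Marker sums were spread over the 3 SPH arrays as well. The summed signal of 14 lymphocyte markers ran from 10219 to 24496, and that of 7 neutrophil markers from 20392 to 42579. Of the lymphocyte markers Cd74 alone averaged 11646 in SPH, so that sum mainly follows a single gene. The part of these markers in the spread of the members was not tested. Leaving out each array in turn left 46 to 61 members that fell, with no share of all probe sets given.

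Rpl22l1 was at 6815, 8708 and 7115 in SPH, a log2 difference from PH of -0.68 (SE 0.07, adjusted p = 1.9e-06). All 3 arrays were far under those of PH, and 2 of them were under every array of sham and normal liver. Rpl36a was at 4663, 5587 and 4920 (-0.43, adjusted p = 4.58e-05). Rps15a was at 8702, 9222 and 8280 (-0.41, adjusted p = 1.56e-05). In all 3 genes the second SPH array was the highest, and Rpl36a and Rps15a stood near their sham arrays.

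Rpl3, at 13848, 14464 and 13213 in SPH, also fell (-0.32, adjusted p = 2.49e-05), as did Rps27 at 11269, 12494 and 11539 (-0.30, adjusted p = 8.88e-05). Rps6 fell to 13056, 12916 and 12571 (-0.21, adjusted p = 0.00166), below each of its PH arrays, under all 4 scalings but not in the fit of these groups alone (adjusted p = 0.0921). The stalk proteins did not pass: Rplp0 was at 12264, 13594 and 12481 (-0.08, adjusted p = 0.255) and Rplp1 at 18815, 18236 and 18513 (-0.13, adjusted p = 0.225). Rpl7l1, a relative of Rpl7 with a role in ribosome assembly, fell from 1772, 1501 and 1603 in PH to 1332, 1367 and 1224 (-0.31, adjusted p = 0.0068), with 0.0875 in the fit of these groups alone; between PH and sham it stood at 0.01 (adjusted p = 0.92).

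After vagotomy with PH fewer members passed. Of 71, 27 fell and 0 rose, against 5.93% of all probe sets that were lower, 6.04% that were higher and, among the bright ones, 29.4% lower and 9.6% higher. Limma at an unadjusted p under 0.05 counted 39 lower and 1 higher. By that rule 2503 of all 22125 probe sets were lower and 2999 higher, and 476 and 173 of the 1208 bright ones. The median log2 difference was -0.12, with 0.05 over all probe sets and -0.07 over the bright ones, a gap of -0.05. All 3 VPH arrays lay below all 3 PH arrays for 44 members, for 13.9% of all probe sets and for 45.9% of the bright ones. Quantile normalization gave 9 members that fell and 8 that rose with a median of -0.03, and centring on bright probe sets gave 13 that fell and 1 that rose. Of all probe sets 5.9% fell and 5.07% rose after quantile normalization, and 4.3% fell and 8.64% rose when centred on bright ones. Without the second PH array 10 fell, without the third VPH array 14 and without the second VPH array 16, with no share of all probe sets given.

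The 9 members that fell in VPH under all 4 scalings, against 4.21% of all probe sets, were Rpl10, Rpl22, Rpl22l1, Rpl28, Rpl37, Rpl37a, Rps10, Rps18 and Rps28, named after their values were seen. Rpl22l1 was at 8764, 8956 and 9271 in VPH (-0.42, adjusted p = 0.000329). Rpl28, a protein that bacteria lack, was at 8810, 8724 and 8805 in VPH against 11605, 11902 and 12125 in PH (-0.43, SE 0.05, adjusted p = 8.57e-06). Rpl37a, a zinc-binding protein of the large subunit, was at 15214, 12449 and 13088 in VPH against 19746, 20675 and 19208 in PH (-0.55, SE 0.12, adjusted p = 0.00401). All 3 stood below their PH arrays without overlap, and the arrays of Rpl37a were spread the most.

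Several members that had risen after PH did not pass in VPH. Rpl3 was at 17440, 17212 and 16940 (-0.01, SE 0.04, adjusted p = 0.917), and Rplp0 at 13696, 13346 and 13196 (-0.01, adjusted p = 0.906). Rpl11 was at 14001, 14610 and 14705 (-0.04, adjusted p = 0.755). Their arrays overlapped those of PH. Rps20 was above PH in VPH, at 12856, 13066 and 13360 against 11625, 12069 and 11828 (0.15, adjusted p = 0.0554), and passed after quantile normalization (0.23, adjusted p = 0.000931).

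After total denervation with PH most members were below their PH level. Of 71, 65 fell and 0 rose, against 7.24% of all probe sets that were lower, 10.5% that were higher and, among the bright ones, 46.9% lower and 8.61% higher. Limma at an unadjusted p under 0.05 counted 66 lower and 0 higher. By that rule 2358 of all 22125 probe sets were lower and 4057 higher, and 675 and 141 of the 1208 bright ones. The median log2 difference was -0.29, a fall of 18%, with 0.11 over all probe sets and -0.14 over the bright ones. All 3 TDPH arrays lay below all 3 PH arrays for 68 members, for 12.7% of all probe sets and for 59.3% of the bright ones. By subunit, 37 of 42 large and 28 of 29 small subunit members fell. The gap to the bright probe sets was -0.14 with the deposited scaling and -0.13 after quantile normalization. Of the 65, 39 fell under all 4 scalings, against 3.52% of all probe sets.

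Rpl22l1 was at 7430, 7754 and 7094 in TDPH (-0.70, SE 0.07, adjusted p = 1.12e-06), each array below every array of sham and normal liver. Rpl36a was at 4841, 4986 and 4826 (-0.48, adjusted p = 1.08e-05), and Rpl37a at 15063, 15803 and 11244 (-0.52, adjusted p = 0.00459). Rps15a was at 8186, 8506 and 8699 (-0.45, adjusted p = 3.22e-06). All 4 lay below their PH arrays, and Rpl37a was again the most spread.

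Both stalk proteins passed here. Rplp0 was at 11696, 10793 and 10988 in TDPH (-0.28, adjusted p = 0.000197), and Rplp1 at 15625, 16490 and 16594 (-0.32, adjusted p = 0.00181). Both fell below all arrays of PH, and after quantile normalization neither passed (-0.10, adjusted p = 0.0917, and -0.15, adjusted p = 0.11). Between TDPH and SPH, Rplp0 differed by -0.19 (adjusted p = 0.00525) and Rplp1 by -0.19 (adjusted p = 0.0593). Rps6 was at 13247, 13264 and 13821 (-0.14, adjusted p = 0.0203), and turned to 0.02 after quantile normalization (adjusted p = 0.756).

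Rpl38, a small protein of the large subunit known in mice for a role in the translation of Hox mRNAs, was ordered differently across the groups. It was at 11266, 11423 and 11318 in normal liver, 12757, 12869 and 12837 after sham and 12913, 13301 and 13437 after PH. It was at 13100, 13550 and 12533 in SPH, 13501, 13687 and 13762 in VPH and 11226, 10954 and 10854 in TDPH. Thus all operated groups but TDPH lay above normal liver, and TDPH lay below all of its arrays; the rise from normal liver to sham (0.18, adjusted p = 0.00146) stood at 0.04 (adjusted p = 0.419) after quantile normalization. TDPH minus PH was -0.26 (SE 0.04, adjusted p = 4.12e-05; -0.09 and adjusted p = 0.0529 after quantile normalization), TDPH minus SPH -0.25 (adjusted p = 0.000102) and TDPH minus VPH -0.31 (adjusted p = 4.13e-06).

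The denervated groups were also compared with each other. In SPH 32 members were lower and 2 higher (Rpl28 and Rpl30) than in VPH, against 10.3% and 9.96% of all probe sets, with a median of -0.12. Among the bright probe sets 20.7% were lower and 34.1% higher, with a median of 0.05. In TDPH 46 were lower and 0 higher than in VPH, against 9.02% and 12.0%, with a median of -0.17. At an unadjusted p under 0.05 limma counted 56 members lower and 1 higher. By that rule 3037 of all 22125 probe sets were lower and 4010 higher, and 551 and 249 of the 1208 bright ones. Of the bright probe sets 36.5% were lower and 17.2% higher than in VPH, with a median of -0.09. Rpl3 fell in both, by 0.31 between SPH and VPH (adjusted p = 1.71e-05) and by 0.35 between TDPH and VPH (adjusted p = 4.74e-06). Under all 4 scalings 21 members were lower in SPH than in VPH (8.47% of all probe sets) and 31 lower in TDPH than in VPH (6.37%).

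TDPH and SPH differed in few members: 11 were lower and 1 higher in TDPH, against 6.27% and 8.12% of all probe sets. Among the bright probe sets 42.3% were lower and 7.86% higher, with a median of -0.12. The sign of the members' median changed with the scaling. It was -0.06 with the deposited scaling, -0.14 when centred on all probe sets, 0.06 after quantile normalization and 0.01 when centred on bright probe sets. The member that was higher was Rpl7l1, at 1643, 1847 and 1640 in TDPH against 1332, 1367 and 1224 in SPH (0.38, SE 0.07, adjusted p = 0.00118). Without the third SPH array 20 members were lower, without the second SPH array 5, without the first TDPH array 6 and without the third TDPH array 4. Shares of all probe sets are not given for the fits without an array.

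**Figure D4:**
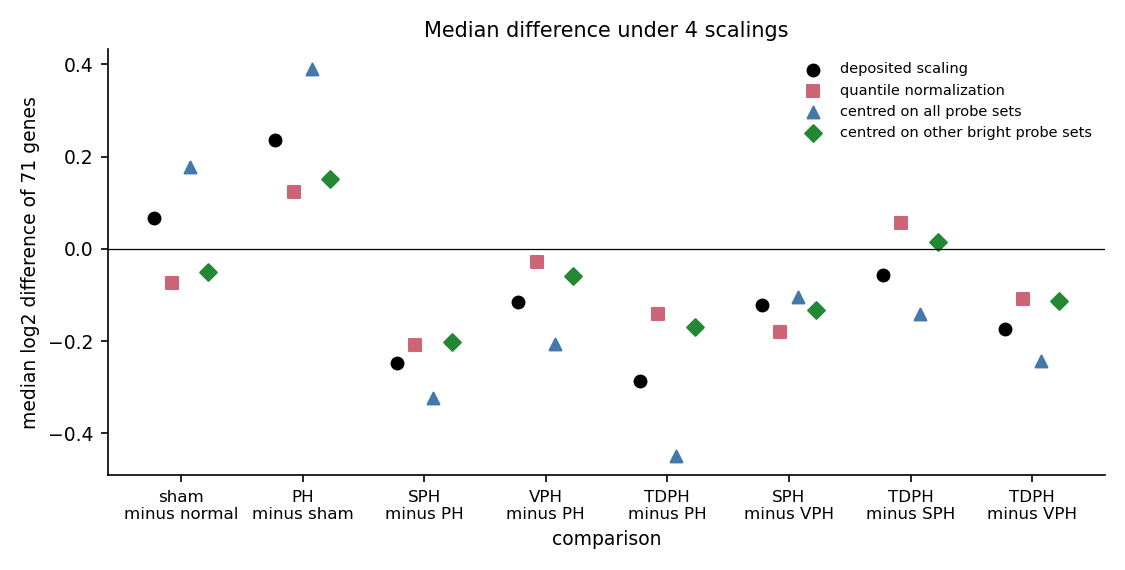
Median log2 difference of the 71 ribosomal protein genes in 8 comparisons under 4 scalings of the arrays, each symbol 1 scaling. The sign is the same under all 4 for PH minus sham (0.12 to 0.39), SPH minus PH (-0.32 to -0.20), TDPH minus PH (-0.45 to -0.14), SPH minus VPH and TDPH minus VPH, stays below 0 but nears it for VPH minus PH (-0.03), and changes for sham minus normal and TDPH minus SPH.

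Whether the effect of both nerve cuts equalled the sum of each was tested as TDPH minus SPH minus VPH plus PH, a log2 contrast that is 0 where effects add. Of 71 members 3 were above 0 and 2 below, against 6.4% and 5.91% of all probe sets, which is near the background. At an unadjusted p under 0.05 limma counted 10 and 5 members, and 2929 and 2511 of all 22125 probe sets. Rpl22l1 had 0.41 (SE 0.10, adjusted p = 0.00896), with TDPH at -0.02 from SPH (adjusted p = 0.926). Rpl38 had -0.29 (SE 0.05, adjusted p = 0.000659), being lower in TDPH but not in SPH or VPH. These were the 2 members called under all 4 scalings, which called 5.48% of all probe sets above 0 and 4.67% below.

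Genes that act with the ribosome were taken by name to set the members in context. Of 18 other genes known for TOP mRNAs in mammals, which include 5 elongation factor and 4 initiation factor genes, 8 rose and 1 fell after PH, with a median log2 difference of 0.12. Fau, the fusion gene that encodes a small subunit protein, rose (signal 12764 ± 642 after sham and 16120 ± 299 after PH, SD, n = 3; log2 difference 0.34, adjusted p = 1.25e-05). Gnb2l1, which encodes the ribosome-bound scaffold Rack1, rose too (7259 ± 98.4 and 8550 ± 186; 0.24, adjusted p = 0.00058). Fau fell in SPH (-0.30) and in TDPH (-0.38), as did Gnb2l1 (-0.23 and -0.29), and neither passed in VPH (-0.02 and -0.04). All these calls of Fau and Gnb2l1 were kept under each of the 4 scalings. Of the 18, 10 fell and 1 rose in SPH, 1 fell in VPH, and 10 fell and 2 rose in TDPH. Centred on bright probe sets, 2 rose and 0 fell in VPH, and 5 fell and 4 rose in TDPH, while centring on all probe sets gave 14 that rose after PH.

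Of 11 elongation and termination factor genes 4 rose and 0 fell after PH. Eef1b2, which recharges the elongation factor eEF1A with GTP, was the furthest up (5427 ± 95.8 after sham and 7440 ± 142 after PH; 0.45, adjusted p = 3.72e-07). It fell in SPH (-0.26) and TDPH (-0.31). Eef2, which moves the ribosome along the mRNA, rose in SPH (0.26, adjusted p = 0.000848; 0.18 and 0.0609 when centred on all probe sets). The list had 4 that fell and 1 that rose in SPH, 0 and 0 in VPH and 3 and 0 in TDPH. Centred on all probe sets 8 rose after PH, and centred on bright ones 1 fell and 2 rose in TDPH.

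Among 52 genes named Eif, most of them initiation factors but with a few kinases, 4E-binding proteins and Argonaute genes, 12 rose and 4 fell after PH. In SPH 16 fell and 0 rose, in VPH 4 rose and 0 fell, and in TDPH 13 fell and 6 rose. These balances turned with the scaling: centred on all probe sets 0 rose and 4 fell in VPH, and centred on bright ones 9 rose and 4 fell in TDPH and 9 rose and 8 fell after PH. Eif6, which keeps the large subunit from joining the small one until it is mature, rose after PH (1743 ± 213 after sham and 2899 ± 44.4 after PH; 0.74, adjusted p = 4.05e-07). Eif4ebp2, a repressor of cap-dependent initiation, fell (3344 ± 50.1 and 2101 ± 213; -0.67, adjusted p = 2.76e-05).

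Of 65 genes of ribosome biogenesis 8 rose and 2 fell after PH, with a median of -0.02. Nop58, a protein of the particles that methylate ribosomal RNA, rose (1429 ± 52.9 after sham and 2047 ± 283 after PH; 0.51, adjusted p = 0.000208) and fell in SPH (-0.54, adjusted p = 0.000216). In SPH 18 of the 65 fell and 1 rose, in VPH 5 rose and 0 fell, and in TDPH 3 rose and 3 fell. Centred on all probe sets 19 rose and 1 fell after PH, and 1 rose and 9 fell in TDPH, where centring on bright ones gave 9 and 0. Of 11 genes of RNA polymerase I, which transcribes ribosomal RNA, 1 rose after PH, 2 fell in SPH, none passed in VPH and 1 rose in TDPH, where 1 fell instead after quantile normalization or centred on all probe sets.

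Of 71 mitochondrial ribosomal protein genes, 1 rose and 9 fell after PH (median -0.06), though centring on all probe sets gave 12 and 3. In SPH 29 fell and 0 rose (median -0.21), in VPH 2 fell and 2 rose, and in TDPH 33 fell and 1 rose (median -0.24). Centred on all probe sets 9 fell and 1 rose in VPH and 54 fell in TDPH, and centred on bright ones 0 fell and 5 rose in VPH and 16 fell in TDPH. Mrps24 fell in SPH (1954 ± 21.1 in PH and 1382 ± 43.2 in SPH; -0.50, adjusted p = 7.45e-05) and in TDPH (-0.57), while it stood at 0.02 between PH and sham (adjusted p = 0.852). The difference between the cytosolic and the mitochondrial genes was not tested.

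Of 20 genes of mTOR and S6 kinase signalling, including Myc, 3 rose and 5 fell after PH, 4 rose and 2 fell in SPH, 3 rose and 1 fell in VPH, and 4 rose and 0 fell in TDPH. Centred on all probe sets the counts were 3 and 3, 4 and 3, 1 and 1, and 2 and 1, in that order. Myc was at 325 ± 34.8 after sham and 1996 ± 116 after PH (2.58, adjusted p = 1.69e-13). It was 1998 ± 303 in SPH (-0.01, adjusted p = 0.975), 1408 ± 38.2 in VPH (-0.50, adjusted p = 0.00169) and 2573 ± 151 in TDPH (0.36, adjusted p = 0.0123; 0.20 and 0.241 when centred on all probe sets). The SE of the SPH difference was 0.10. Mtor did not pass in any of these comparisons with PH (-0.24 between PH and sham, adjusted p = 0.156), and Larp1 did not either (0.11, adjusted p = 0.716).

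**Figure D5:**
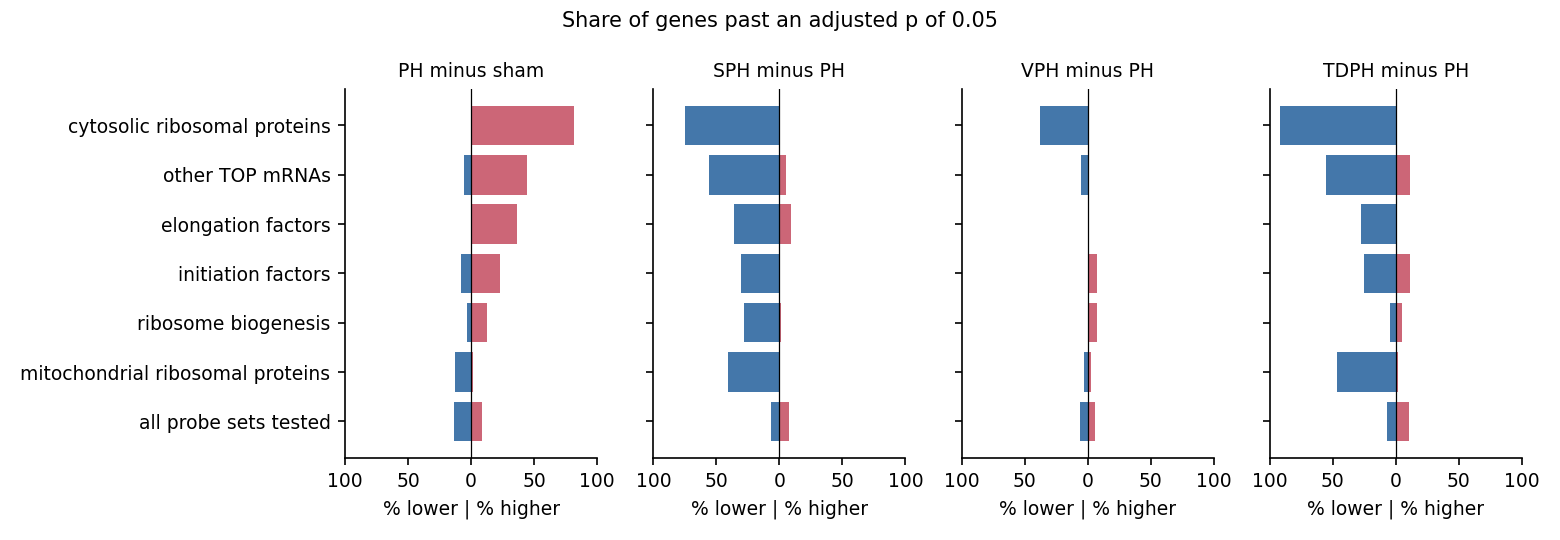
Share in percent of the tested genes of each list that were higher (red, to the right) or lower (blue, to the left) at an adjusted p under 0.05, for 4 comparisons, with all 22125 probe sets tested in the bottom bar. Of the cytosolic ribosomal protein genes 58 of 71 are higher in PH than in sham and 65 of 71 lower in TDPH than in PH, and of the mitochondrial ones 1 and 33 of 71.

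Other measures moved along with the groups. The tissue was liver by its markers, with summed signals of 15 hepatocyte genes between 551638 and 823887 on every array, and Alb at 39368 in normal liver. Between normal liver and sham, 12 of 15 hepatocyte markers were higher, 11 of 14 lymphocyte markers lower, 8 of 10 macrophage markers lower and 1 higher, 4 of 6 endothelial, 3 of 9 stellate and 1 of 7 neutrophil markers lower, and 2 of 3 red cell markers higher. The summed lymphocyte signal was 25191 to 25870 in normal liver and 4767 to 5232 after sham. Most of that sum was the signal of a single gene, Cd74, with means of 20358 in normal liver and 2718 after sham. After PH 6 of 7 neutrophil markers and 5 of 9 stellate cell markers were higher than after sham. So were 5 of 14 lymphocyte and 2 of 15 hepatocyte markers, and of 10 macrophage markers 5 were higher and 2 lower. The summed neutrophil signal was 1883 to 2124 after sham and 12127 to 12694 after PH. In SPH 12 of 15 hepatocyte, 5 of 7 neutrophil, 5 of 10 macrophage, 2 of 14 lymphocyte and 1 of 9 stellate markers were higher than in PH. In VPH 8 of 14 lymphocyte, 10 of 10 macrophage and 1 of 7 neutrophil markers were higher. Lower in VPH was 1 of 15 hepatocyte markers, and of 9 stellate markers 1 was higher and 1 lower. In TDPH 5 of 15 hepatocyte, 4 of 9 stellate and 2 of 7 neutrophil markers were lower. There 3 of 10 macrophage markers were higher and 4 lower, and 1 of 14 lymphocyte markers was higher. Of 6 endothelial markers tested 1 was higher after PH and 1 in TDPH, of 3 red cell markers 1 was higher in SPH, and neither of 2 cholangiocyte markers passed in a comparison with PH. The ratio of 3' to 5' signal of Actb, a measure of RNA integrity, averaged 1.89 for normal liver, 2.19 for sham, 1.76 for PH, 1.80 for SPH, 1.84 for VPH and 2.00 for TDPH. That of Gapdh averaged 1.29, 1.349, 1.215, 1.288, 1.178 and 1.299 in the same order, lowest in VPH and PH. The median signal of an array was 147, 140, 124, 132, 133 and 139 in the same order. Their part in the differences of the ribosomal protein genes was not tested. In such bulk samples fewer cells of a type and less RNA per cell cannot be told apart.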

How the data were processed

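The series holds 18 arrays of rat liver, 3 in each of 6 groups taken from the sample titles. The deposited value table gives 1 signal intensity per probe set and array on a linear scale, made with GCOS 2.0 per the submitters' processing notes. Its trimmed mean was 500.0 on every array, so the authors had scaled the arrays to a common level, and no source used here names the background method. Per the file headers, a second deposited table holds signal intensity, log2 ratios and linear ratios of each operated group against normal liver; its log2 values served as an alternative, and its ratio columns were not used. The authors' deposited table gave a member median log2 ratio to normal liver of 0.07 (sham), 0.30 (PH), 0.06 (SPH), 0.18 (VPH) and 0.00 (TDPH).

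Signals were analysed as log2(signal + 12), with 57 control probe sets left out and 22125 probe sets kept whose signal passed, on 3 arrays or more, the array's own 40th percentile. This scale understates differences of dim probe sets. A model of the 6 group means over the 18 arrays was fitted in R 4.3.3 using limma 3.58.1 (lmFit and eBayes with trend, residual degrees of freedom 12, prior 7.14), two-sided, with Benjamini-Hochberg adjustment over all probe sets tested. A gene rose or fell at an adjusted p under 0.05. The fit was checked on simulated data.

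Genes were named by the symbol of the platform annotation (19914 probe sets with 1 symbol, 343 with several and 10842 with none), and 71 of 72 member symbols are current in RefSeq. Of 33 probe set accessions found there, 30 belong to the same gene; those of Rpl13a, Rpl36al and Rpl37 are listed under Hk3, Rpl36al1 and Rpl37l1. Members described singly were drawn from the 3 largest differences each way per comparison among those past the test. They were also drawn from the 3 brightest, the 3 dimmest, and a list of stalk proteins, paralogs, Rps6, Rpl5 and Rpl11. Not every gene so listed is described. Members and lists were chosen with earlier results of these data known. The alternatives were quantile normalization, centring on the median of all probe sets, pseudocounts of 1 and 90, no filter, a fit of only the groups compared, the replicate number as a block, all probe sets of a gene averaged, and leaving out each array; centring on the median of other bright probe sets was added after seeing the data.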

Additional observations from a re-analysis of the deposited data

Results flagged for a closer look

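The response to both nerve cuts together differed from the sum of the single cuts in 5 ribosomal protein genes, tested as the log2 contrast TDPH minus SPH minus VPH plus PH (limma, adjusted over all probe sets). That is 3 of 71 above 0 and 2 below, against 6.4% and 5.91% of all probe sets, so no more than the background share. Rpl22l1 was above 0 at 0.406 (adjusted p = 0.00896), Rpl28 at 0.286 (adjusted p = 0.0126) and Rpl7l1 at 0.327 (adjusted p = 0.0455), while Rpl38 was below 0 at -0.292 (adjusted p = 0.000659) and Rps2 at -0.206 (adjusted p = 0.0261). Rpl28 was at 9951, 10626 and 9164 in SPH, 8810, 8724 and 8805 in VPH and 8711, 9618 and 8484 in TDPH, so the 3 VPH arrays lay within the range of TDPH and SPH reached somewhat higher. Rps2, a small subunit protein at the mRNA entry, was at 17617, 19261 and 16971 in SPH, 18291, 18585 and 18918 in VPH and 15985, 16077 and 15755 in TDPH, with 17694, 18212 and 18481 in PH, so each TDPH array was below all others listed. The call of Rpl28 was lost when arrays were centred on all probe sets (adjusted p = 0.0562), that of Rps2 after quantile normalization (-0.10, adjusted p = 0.223) and centred (adjusted p = 0.13), and that of Rpl7l1 after quantile normalization (adjusted p = 0.0539) and centred (adjusted p = 0.0643). Leaving out single arrays ended the calls of Rpl7l1 and Rps2 for several arrays of PH, VPH and TDPH, and that of Rpl7l1 also without the third SPH array. Without the second SPH array 13 members were above 0 in place of 3, with no share of all probe sets given.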

How the results depend on the processing

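Below, counts are members higher then lower, followed by their median log2 difference. Medians kept their sign under all 4 scalings for PH minus sham, for SPH, VPH and TDPH minus PH, for SPH and TDPH minus VPH and for the additivity contrast, and turned for sham minus normal and TDPH minus SPH; the cause was not tested. Quantile normalization gave 1 and 17 (-0.073) for sham minus normal, 37 and 1 (0.124) for PH minus sham, 48 lower (-0.209) for SPH minus PH, 8 and 9 (-0.028) for VPH minus PH, 39 lower (-0.141) for TDPH minus PH, 1 and 47 (-0.18) for SPH minus VPH, 12 and 1 (0.056) for TDPH minus SPH, 32 lower (-0.109) for TDPH minus VPH, and 10 and 3 (0.091) for the additivity contrast. Centring on all probe sets gave, in that order, 29 and 0 (0.177), 69 and 0 (0.391), 57 lower (-0.323), 38 lower (-0.207), 69 lower (-0.448), 0 and 21 (-0.105), 1 and 16 (-0.142), 54 lower (-0.243), and 1 and 1 (0.048). Centring on other bright probe sets, chosen after seeing the data, gave 0 and 14 (-0.049), 45 and 0 (0.152), 45 lower (-0.201), 1 and 13 (-0.059), 51 lower (-0.17), 2 and 35 (-0.132), 4 and 2 (0.014), 33 lower (-0.113), and 5 and 2 (0.056). Of all probe sets, these scalings in turn called 9.76%, 14.8% and 6.49% higher for PH minus sham. They called 7.18%, 9.26% and 5.11% lower for SPH minus PH, and 5.9%, 9.12% and 4.3% for VPH minus PH. For TDPH minus PH 6.68%, 13.1% and 3.87% were lower. For sham minus normal 8.08%, 11.8% and 4.47% were higher and 8.44%, 5.71% and 15.4% lower. The share of all calls that were higher moved from 46.3% to 67.4% and 22.5% (sham minus normal), from 52.1% to 33.3% and 64.3% (SPH minus PH), from 50.5% to 28.1% and 66.8% (VPH minus PH), from 59.2% to 24.2% and 82.6% (TDPH minus PH), from 56.4% to 36.1% and 73.3% (TDPH minus SPH) and from 57.1% to 43.4% and 69.7% (TDPH minus VPH) under these centrings.

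Fitting only the groups compared gave 25 and 2 for sham minus normal and 0 and 17 for SPH minus VPH. A single direction is given for the next ones. These were 24 lower for SPH minus PH, 1 higher for VPH minus PH, 1 lower for TDPH minus SPH and 1 below 0 for the additivity contrast. Members that fell in VPH minus PH are not counted here. In limma Rpl29 and Rps27 were among them (adjusted p = 0.0192 and 0.0136). Shares of all probe sets are not given for these fits. With no filter, or with probe sets averaged, 1 was higher for SPH minus VPH. After quantile normalization the sign turned for Rps2 (-0.127), Rps29 (-0.065) and Rps6 (-0.135) in sham minus normal, for Rpl38 in PH minus sham (-0.103) and for Rps6 in TDPH minus PH (0.024).

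Leaving out each array in turn gave 4 to 8 higher and 1 lower for sham minus normal (0.052 to 0.075), 50 to 57 higher for PH minus sham (0.225 to 0.257), 46 to 61 lower for SPH minus PH (-0.275 to -0.202), 10 to 22 lower for VPH minus PH (-0.133 to -0.094), 62 to 65 lower for TDPH minus PH (-0.3 to -0.272), 0 to 2 higher and 25 to 38 lower for SPH minus VPH (-0.15 to -0.077), 1 to 3 higher and 4 to 20 lower for TDPH minus SPH (-0.098 to -0.024), 39 to 44 lower for TDPH minus VPH (-0.185 to -0.169), and 2 to 13 above and 1 to 5 below 0 for the additivity contrast (0.005 to 0.083). No shares of all probe sets are given for the fits without an array. In sham minus normal 4 were higher without normal 3, sham 1 or sham 2, 5 without normal 1 and 6 without normal 2. In SPH minus VPH 1 was higher without SPH 2 or VPH 2 and 0 without VPH 3, in TDPH minus SPH 3 were higher without SPH 2, and below 0 in the additivity contrast were 1 without PH 1, TDPH 3, VPH 2 or VPH 3 and 5 without SPH 3.

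Replicate numbers did not pair the arrays: deviations of same-numbered arrays correlated at -0.027 to 0.058 over 45 pairs. With the replicate number as a block, 11 were higher and 1 lower for sham minus normal, 58 and 0 for PH minus sham, and 54, 29 and 65 lower for SPH, VPH and TDPH minus PH. Shares of all probe sets are not given beside the counts with the block. The precision is limited by the 3 arrays per group.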

Other observations

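Ribosomal protein genes with several symbols on their probe set, which are no members, were also tested. Of 11 such probe sets 5 rose after PH (median log2 difference 0.12), 6 fell in SPH (-0.16), 2 fell in VPH (-0.07) and 7 fell in TDPH (-0.22). Of 5 second probe sets of members that were tested, none passed between PH and sham at an adjusted p under 0.05 in limma (median -0.13), 1 fell in SPH (median -0.27), and none passed in VPH (0.08) or TDPH (-0.18). The difference from the first probe sets was not tested. The second probe set of Rpl3 stood at 0.18 after PH (adjusted p = 0.255), -0.27 in SPH (adjusted p = 0.103) and -0.18 in TDPH (adjusted p = 0.287). When all probe sets of a gene were averaged, Rpl7 stood at 0.08 after PH (adjusted p = 0.471), against 0.24 (adjusted p = 0.00423) for its brightest probe set.

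The second deposited table holds a signal column under its VPH heading that equals no array of the value table (64 probe sets are equal to an array), and the third VPH array is not among its columns. In that column the median over the ribosomal protein genes was 13.63 on the log2 scale, their share of the summed signal 3.27% and the signal of Rpl22l1 8555. The array that correlated with it best was the first VPH array (r = 0.954 across probe sets, which are not independent).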
